A study of Mus musculus with 4 samples.

Results

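The genes described here are 9 genes with which the enterocytes of the small intestine digest food at their surface and export dietary fat: Sis, Mgam, Lct, Anpep, Apob, Apoa1, Apoa4, Mttp and Fabp2. They were listed by name for these known functions, with earlier results of these data known. All 9 were measured, out of 22180 genes in all. Each had 1 probe set, so each value below is that of a single probe set on the log2 scale of the deposited table. The study hybridized RNA of intestinal T cell preparations from C57Bl/6 mice, 8 to 10 weeks old, to 4 Affymetrix arrays. The groups were small intestinal intraepithelial lymphocytes (IEL, which lie among the epithelial cells), colon IEL, colon IEL after antibiotics and recolonization, and T cells of the colon lamina propria (LP), the tissue under the epithelium. Mice of the recolonized group drank ampicillin, neomycin, metronidazole and vancomycin for 7 days and then had 7 days of recolonization, by shared housing or by used bedding, which the labels give in different places; the other groups were untreated. Per the labels, 10 mice (5 male and 5 female) were pooled, stated in 1 place as a total and in another as the number per sample. The lamina propria cells were taken from the tissue left after the epithelium had been shaken off, and all cells were enriched for T cells by magnetic negative selection that also targeted EpCAM, an epithelial surface protein. Each group is 1 array, so no value has an error, no test is possible and no p-value is given.

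Enterocytes carry a brush border of microvilli on the side that faces the gut lumen, and enzymes anchored in it finish the digestion of sugars and peptides. Absorbed fatty acids are carried through the cell by small binding proteins, joined again into triglycerides, and packed around apolipoprotein B into chylomicrons, lipoprotein particles that leave through the lymph. These genes are textbook markers of the absorptive cells of the small intestine.

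Marker genes were set against the labels first. Over the 9 measured T cell markers the median level was 5.95 for small intestinal IEL, 5.86 for colon IEL, 6.77 for the recolonized array and 2.41 for the lamina propria label. The 14 pan-epithelial markers had medians of 5.87, 4.29, 5.28 and 8.34 in that order, and the 9 colonocyte markers 3.83, 3.14, 5.57 and 9.41. The array with the lamina propria label went against that label, with T cell markers near its median gene level of 2.18 and colonic epithelial markers high, and it is called the array labelled LP throughout, after its title. The median gene level of the small intestinal IEL array was 2.24, that of colon IEL 2.41 and that of the recolonized array 2.39. Counts of genes took in those that reached, on the brighter array of a pair, the 50th percentile of gene levels there. The share of higher genes among all those at least 2-fold apart depended on the scaling. It was 80.3% for small intestinal against colon IEL, but 50.4% under quantile normalization. Centred on the median difference of the genes that reached that percentile, called the level floor here, it was 57.9%. After a lowess correction it was 60.3%, and centred on the pan-epithelial markers 3.64%. For small intestinal IEL against recolonized colon IEL it was 79%, and under these 4 alternatives in the same order 50.8%, 62%, 62.3% and 8.91%. Against the array labelled LP it was 35.8%, and 49.5%, 46.3%, 47.5% and 98.3%. For the array labelled LP against colon IEL it was 76.8%, and 51.1%, 52.4%, 55.8% and 0.697%. For recolonized against unmanipulated colon IEL it was 66.3%, and 48.8%, 48.2%, 46.6% and 2.76%.

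Promoter sequences were available from RefSeq (build GRCm38.p6) for all 9 genes, as windows from 250 bases before to 50 after the gene start. Those of the 3 disaccharidases are shown because their genes share a function but separated on the arrays, and those of Apob and Mttp because the proteins they encode work together in lipoprotein assembly while their levels also separated. Bases run 5′ to 3′ on the strand of the gene. Capitals mark matches, on either strand, to 5 short motifs. For the nuclear receptor HNF4 the letters searched were CAAAGTCCA. The homeodomain factor HNF1 was represented by GTTAAT and the zinc finger factors of the GATA family by AGATAA. For the intestinal homeodomain factor CDX the letters were TTTATNG, and the core promoter's TATA box was searched as TATAAA.
Sis (chr3:72967814-72968113, minus strand): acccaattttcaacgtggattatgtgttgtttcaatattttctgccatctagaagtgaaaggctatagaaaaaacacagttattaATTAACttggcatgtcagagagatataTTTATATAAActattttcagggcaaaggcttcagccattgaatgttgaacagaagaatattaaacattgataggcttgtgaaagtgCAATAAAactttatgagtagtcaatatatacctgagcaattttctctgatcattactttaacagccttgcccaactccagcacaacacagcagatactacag
Mgam (chr6:40628581-40628880, plus strand): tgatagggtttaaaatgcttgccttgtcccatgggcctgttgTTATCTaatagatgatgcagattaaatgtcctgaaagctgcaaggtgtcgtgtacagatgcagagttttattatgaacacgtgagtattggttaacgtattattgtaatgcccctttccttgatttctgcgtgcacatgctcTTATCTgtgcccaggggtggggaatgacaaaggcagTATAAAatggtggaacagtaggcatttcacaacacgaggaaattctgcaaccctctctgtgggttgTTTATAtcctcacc
Lct (chr1:128328269-128328568, minus strand): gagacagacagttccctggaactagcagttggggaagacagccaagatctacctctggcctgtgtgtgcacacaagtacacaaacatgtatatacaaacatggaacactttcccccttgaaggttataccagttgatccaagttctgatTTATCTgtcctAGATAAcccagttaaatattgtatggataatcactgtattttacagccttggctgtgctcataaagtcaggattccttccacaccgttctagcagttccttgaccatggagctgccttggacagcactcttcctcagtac
Apob (chr12:7977427-7977726, plus strand): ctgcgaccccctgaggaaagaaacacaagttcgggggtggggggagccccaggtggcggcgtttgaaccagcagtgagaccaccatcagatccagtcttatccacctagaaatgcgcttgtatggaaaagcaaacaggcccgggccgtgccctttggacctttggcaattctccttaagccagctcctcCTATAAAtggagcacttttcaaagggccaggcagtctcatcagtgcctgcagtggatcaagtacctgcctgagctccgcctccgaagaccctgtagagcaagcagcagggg
Mttp (chr3:138143369-138143668, minus strand): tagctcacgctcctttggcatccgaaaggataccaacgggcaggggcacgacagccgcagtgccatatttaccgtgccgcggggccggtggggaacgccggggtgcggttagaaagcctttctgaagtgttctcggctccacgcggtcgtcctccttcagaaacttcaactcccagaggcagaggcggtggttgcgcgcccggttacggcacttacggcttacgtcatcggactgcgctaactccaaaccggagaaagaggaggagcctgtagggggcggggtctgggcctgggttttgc

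The TATA box letters occurred in the windows of 3 of the 9 genes, namely Sis, Mgam and Apob, and in 13.6% of 32851 promoter windows of the same length. The CDX letters occurred in Sis, Apob and Fabp2, against 10.9% of all windows. In Apob the CDX match overlaps the TATA box match, 1 base apart, and in Sis a pair of TATA box matches on opposite strands overlap. GATA letters were found in Mgam and Lct (11.2% of all windows), with 2 matches in each, and HNF1 letters in Sis (7.1%). The HNF4 letters were in none of the 9 windows, and in 0.475% of all windows. Mttp, Anpep, Apoa1 and Apoa4 held none of the searched letters, which says only that these letters are not in these windows. Base composition varied widely: GC content ran from 34.0% in Sis to 72.3% in Anpep, with a median of 56.7% against 52.7% over all windows. CpG dinucleotides numbered 28 in Anpep and 27 in Mttp and between 1 and 9 in the other members, against a median of 7 over all windows. Of these genes with a CpG-rich window, Anpep was higher by 5.34 on the array labelled LP than on colon IEL, and Mttp by 0.61. The part of base composition in these levels was not tested, and 1 window per gene was searched.

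**Figure D1:**
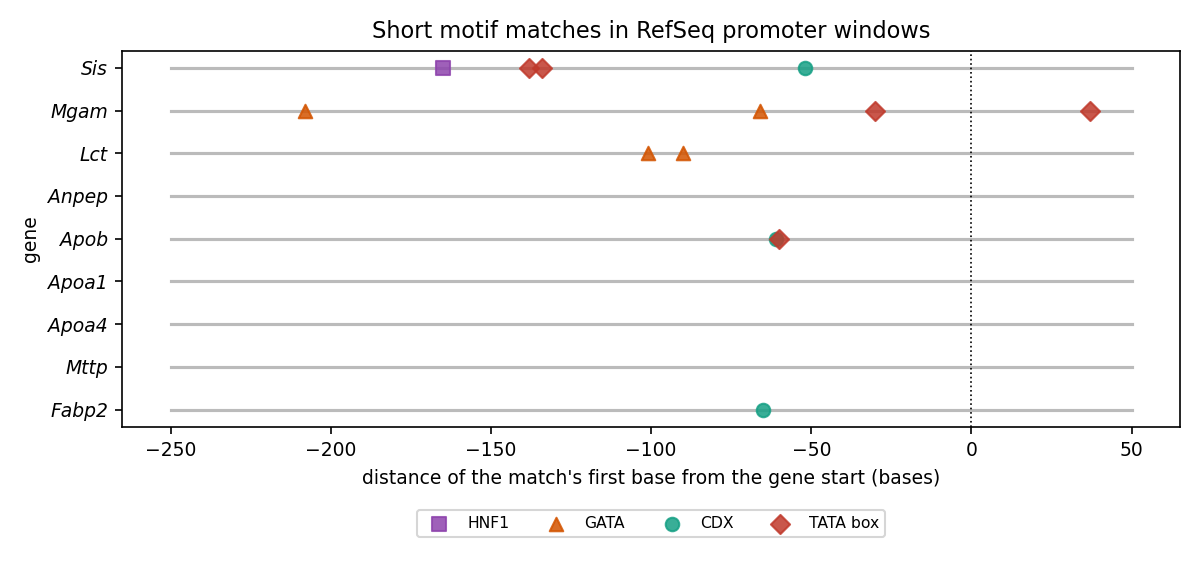
Position of each short motif match (first base, x axis, in bases from the gene start) in the promoter window of each of the 9 genes (rows). Symbols stand for HNF1 letters, GATA, CDX and TATA box letters. Matches were found in 5 of the 9 windows, and those of Anpep, Apoa1, Apoa4 and Mttp hold none.

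All 9 genes were highest on the small intestinal IEL array, where their levels ran from 7.75 to 11.26. On the colon IEL array they ran from 1.59 to 4.87, and 5 of the 9 lay below that array's median gene level. The median difference between both arrays was 6.38, and single genes ran from 5.06 to 7.88. With levels under the array median raised to it, since such levels may be background, the median stayed at 6.38 and Mgam, for example, went from 7.63 to 6.81. All 9 genes were at least 16-fold higher on the small intestinal IEL array, a size reached by 1.2% of 12553 genes above the level floor; 24.4% of those genes were at least 2-fold higher. The 16-fold threshold was chosen after seeing the data. Over all genes above the floor the median difference was 0.30. In RNA of pooled cells, more enterocytes and more RNA per enterocyte cannot be told apart. Pan-epithelial markers were also higher on the small intestinal IEL array, by a median of 1.95, and their part in the result was not tested. Set relative to that median, the members' differences ranged from 3.10 for Apoa1 to 5.93 for Anpep. Single pan-epithelial markers ran from 0.73 to 5.15. The highest of them, Krt20, exceeded Apoa1 at 5.06, and the other members lay above that range.

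**Figure D2:**
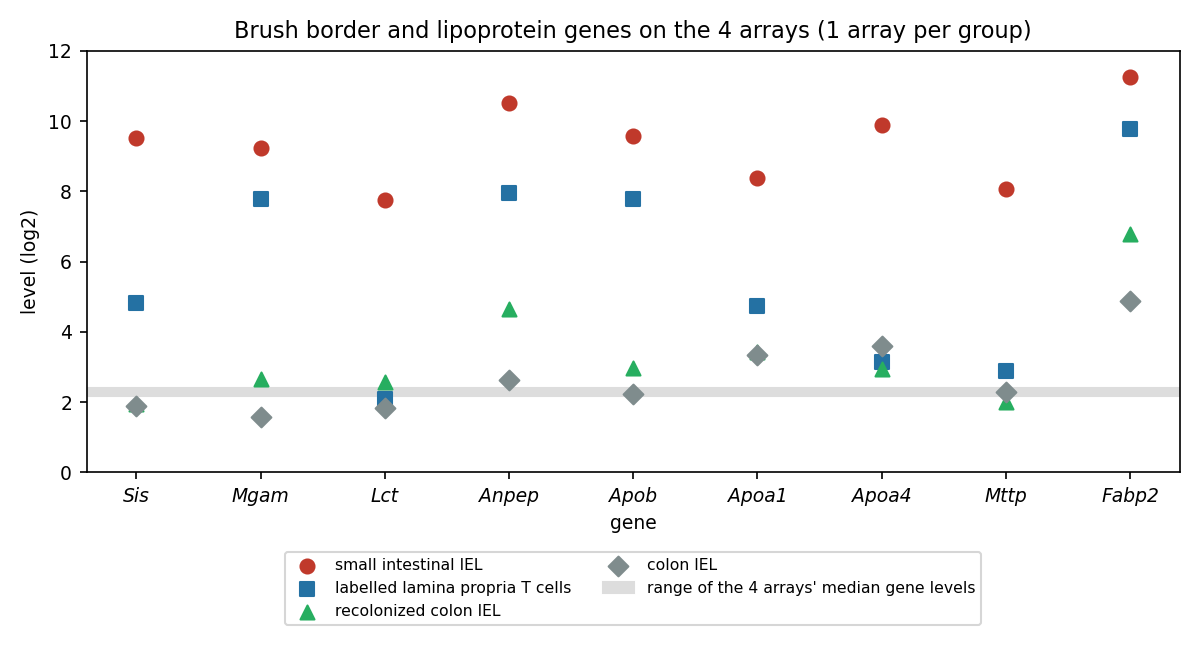
Level (y axis, log2) of each of the 9 genes (x axis) on the 4 arrays, 1 symbol per array; the grey band spans the median gene levels of the arrays, 2.18 to 2.41. The small intestinal IEL array is highest for every gene. The array labelled LP lies between 7.77 and 9.76 for Mgam, Anpep, Apob and Fabp2, and between 2.10 and 3.13 for Lct, Mttp and Apoa4.

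The disaccharidases split sugars at the brush border. Sis encodes sucrase-isomaltase, which cleaves sucrose and starch fragments. Its level was 9.53 for small intestinal IEL, 4.82 on the array labelled LP, 1.95 on recolonized colon IEL and 1.90 on colon IEL. Both colon IEL arrays were thus below their median gene level, and the array labelled LP was above colon IEL by 2.92, or by 2.41 with levels under the array median raised to it. Mgam, maltase-glucoamylase, a close relative that frees glucose from starch fragments, was at 9.22, 7.77, 2.66 and 1.59 in the same order of arrays. Lct, lactase, which splits milk sugar and declines after weaning in most mammals, was at 7.75, 2.10, 2.58 and 1.83. Relative to the median gene level, Lct was 0.19 above it on recolonized colon IEL, and at −0.085 on the array labelled LP and −0.59 on colon IEL. Mgam on colon IEL was at −0.83 relative to it. The small intestinal level exceeded that of the array labelled LP by 1.45 for Mgam, 4.70 for Sis and 5.65 for Lct. The fourth disaccharidase measured, trehalase (Treh), was at 6.47 on the small intestinal IEL array and between 2.12 and 2.47 on the colon arrays, and the small intestinal level exceeded that of the array labelled LP by 4.35.

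Anpep encodes aminopeptidase N, which trims amino acids from the ends of peptides and is also found on myeloid cells as CD13. Its level was 10.50 for small intestinal IEL, 7.97 on the array labelled LP, 4.66 on recolonized colon IEL and 2.63 on colon IEL. The 4 levels did not lie close to each other: neighbouring arrays in this order were 2.54, 3.30 and 2.04 apart. The 8 myeloid markers had medians of 2.96, 1.96, 2.40 and 2.75 in the same order of arrays. Of the 8, 6 passed the floor, and 1 was at least 2-fold higher and 1 at least 2-fold lower on small intestinal than on colon IEL. Of all 12553 genes above the floor, 3059 were higher and 751 lower. Itgax, the integrin CD11c of dendritic cells, was at 5.24, 1.52, 2.50 and 2.10 in that order and so was highest on the array where Anpep was highest. Lyz2, lysozyme, was at 6.65, 2.05, 5.74 and 6.40, and Csf1r, the receptor for a macrophage growth factor, was between 1.96 and 2.88 on all arrays; Lyz2 and Csf1r were chosen after their values were seen. Adgre1, the macrophage protein F4/80, was at 1.69, 1.48, 1.96 and 2.75. The part of myeloid cells in the level of Anpep was not tested.

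Among the lipoprotein genes, Apob encodes the scaffold protein of chylomicrons, and Mttp the transfer protein that loads it with lipid. Apob was at 9.58 for small intestinal IEL, 7.77 on the array labelled LP, 2.98 on recolonized colon IEL and 2.22 on colon IEL. Mttp was at 8.08, 2.89, 1.995 and 2.28 in that order. On the array labelled LP, Apob was higher than on colon IEL by 5.55 and Mttp by 0.61. Both colon IEL levels lay below that array's median gene level and may be background; with levels under the array median raised to it, the differences were 5.36 and 0.48. From the small intestinal to that array the step was 1.80 for Apob and 5.19 for Mttp.

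Apoa1 and Apoa4 encode apolipoproteins carried on chylomicrons and on high-density lipoprotein, and they are neighbours on chromosome 9 with Apoc3 between them and Apoa5 beyond Apoa4. Apoa1 was at 8.39 for small intestinal IEL, 4.74 on the array labelled LP, 3.44 on recolonized colon IEL and 3.34 on colon IEL. Apoa4 was at 9.89, 3.13, 2.96 and 3.61. The 3 colon arrays were within 2-fold of each other for Apoa4, whereas for Apoa1 the array labelled LP stood 2.65-fold above colon IEL. Of the other genes of the cluster, Apoc3, an inhibitor of triglyceride clearance, was at 4.13 on the small intestinal IEL array and between 2.06 and 2.33 on the colon arrays. Apoa5 (chosen after its values were seen) was between 1.78 and 2.33 on all 4 arrays, near or under the median gene levels.

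Fabp2 encodes the intestinal fatty acid binding protein of the enterocyte cytoplasm. It was at 11.26 for small intestinal IEL, 9.76 on the array labelled LP, 6.78 on recolonized colon IEL and 4.87 on colon IEL. It was the member with the smallest difference between the small intestinal and the recolonized array, 4.48. On all 4 arrays it lay at least 2.46 above the array's median gene level.

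The other colon arrays were compared with the small intestinal IEL array in the same way; these comparisons share that array and are not independent of each other. Against recolonized colon IEL all 9 genes were at least 16-fold higher, against 0.993% of 12382 genes above the floor, and 17.9% were at least 2-fold higher. The median difference was 6.08, ranging from 4.48 for Fabp2 to 7.58 for Sis. Against the array labelled LP all 9 genes were at least 2-fold higher, where 8.76% of 12164 genes were. Of these, 4 were at least 16-fold higher, namely Sis, Lct, Apoa4 and Mttp, where 0.995% of genes were. The median was 3.65, with Mgam lowest at 1.45 and Apoa4 highest at 6.75. The pan-epithelial markers went the other way, with 13 of 14 at least 2-fold lower on the small intestinal IEL array, where 15.7% of genes were, and a median of −2.08. Against recolonized colon IEL they were higher on the small intestinal IEL array, by a median of 1.14 and with 8 of 14 at least 2-fold higher. Their part in the members' differences was not tested.

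**Figure D3:**
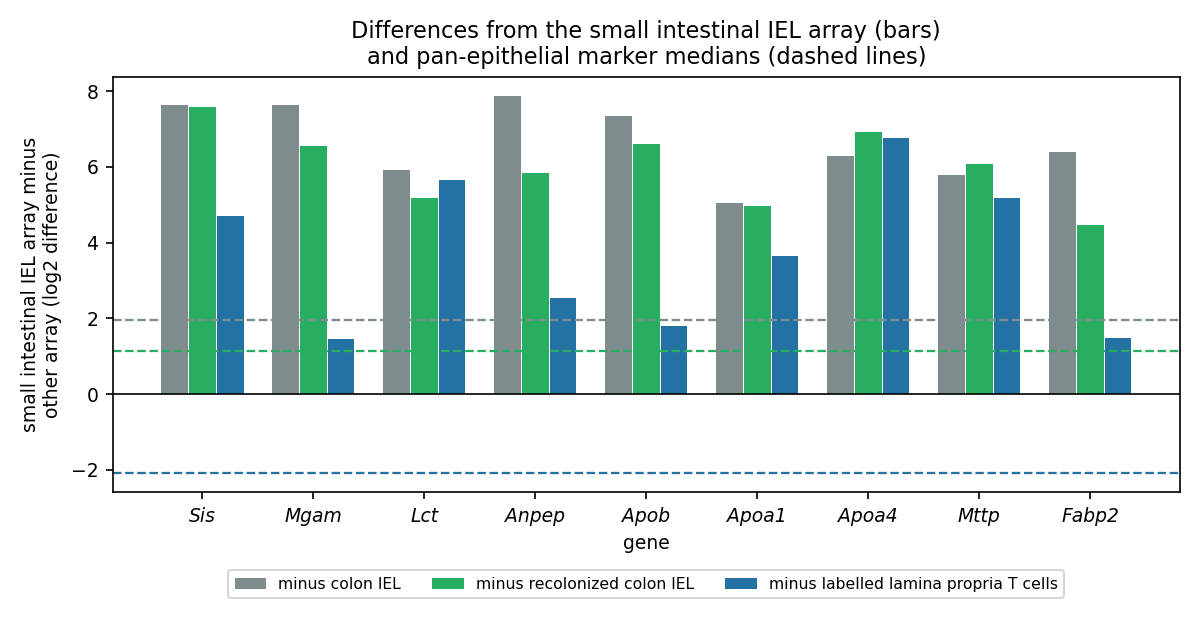
Level on the small intestinal IEL array minus the level on each of the 3 other arrays (y axis, log2 difference) for the 9 genes (x axis); dashed lines give the median difference of the 14 pan-epithelial markers in the same colours, at 1.95, 1.14 and −2.08. Every bar lies above its dashed line, and bars against the array labelled LP range from 1.45 to 6.75. The lines are medians. Single markers, not drawn, ran from 0.73 to 5.15 against colon IEL and from −0.27 to 4.17 against recolonized colon IEL. Against the array labelled LP they ran from −2.98 to 0.11.

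The array labelled LP was then set against colon IEL. By the labels this compares compartments of the colon, but the markers of the former went against its label. Of the 9 genes, 8 passed the level floor and 6 of them were at least 2-fold higher on the former, where 34.7% of 12789 genes were. Mgam, Apob, Anpep and Fabp2, with differences of 6.18, 5.55, 5.34 and 4.89, were at least 16-fold higher, where 2.13% of genes were. Sis and Apoa1 were higher by 2.92 and 1.41. Mttp and Apoa4 differed by less than 2-fold, with 0.61 and −0.47, and Lct, with 0.27, did not reach the floor on either. The pan-epithelial markers were higher by a median of 4.11 in the same comparison. Relative to that median, Mgam, Apob and Anpep were higher by 2.07, 1.44 and 1.23, Fabp2 by 0.78, and Sis, Apoa1, Mttp, Lct and Apoa4 were lower, with −1.19, −2.71, −3.50, −3.84 and −4.59. Within the disaccharidases and within the lipoprotein genes alike, some members thus differed by more than the pan-epithelial median and others by less. Single pan-epithelial markers ran from 2.86 to 5.95, a range that holds Sis, Apob, Anpep and Fabp2. Mgam lay above that range, and Apoa1, Mttp, Lct and Apoa4 lay below it. Sis stayed above 2-fold, with 2.48 when centred on the median difference of genes above the floor, 2.47 on quantile-normalized levels and 2.42 with lowess. Apoa1 did not, with 0.97, 0.48 and 0.41 in that order.

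The recolonized array was set against unmanipulated colon IEL, the contrast of antibiotics followed by returning bacteria with no treatment. Of the 9 genes, 7 passed the floor and 3 were at least 2-fold higher on the recolonized array: Anpep by 2.04, Fabp2 by 1.91 and Mgam by 1.07. The share over 12443 genes was 6.04%. The remaining differences ran from −0.65 for Apoa4 to 0.75 for Apob and Lct, and 0 members were at least 2-fold lower, where 3.06% of genes were. Mgam was at 2.66 on the recolonized array, close to that array's median gene level. Mgam no longer reached 2-fold when levels under the array median were raised to it, an alternative added after seeing the data. Centred on the median difference of genes above the floor, Mgam was higher by 0.95, also short of 2-fold. Pan-epithelial markers were higher by a median of 0.79, colonocyte markers by 2.10, 6 of the 8 that passed the floor being at least 2-fold higher, and goblet cell markers by 1.42. Their part in the differences of Anpep, Fabp2 and Mgam was not tested. Between the array labelled LP and the same colon IEL array these 3 genes differed by 5.34, 4.89 and 6.18.

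The other genes of the digestive surface were taken from lists by function. Of the 10 brush border peptidases other than Anpep that were measured, 9 passed the floor against colon IEL. All 9 were at least 2-fold higher on the small intestinal IEL array, where 24.4% of genes were. The median over the 10 was 3.90. Mme, neprilysin, was at 8.67 on the small intestinal IEL array and between 2.12 and 2.55 on the colon arrays. Enpep, glutamyl aminopeptidase, was at 8.27 there and at 5.93 on the array labelled LP, and Ace, angiotensin-converting enzyme, at 8.87 and 4.38. Folh1 was between 1.32 and 1.41 on all 4 arrays. Mep1a, a meprin subunit, was chosen after its values were seen. It was the single peptidase at least 2-fold lower on the small intestinal IEL array than on the array labelled LP. Its levels were 5.32 and 8.09 in that order, and 15.7% of genes above the floor were lower in that comparison.

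All 7 other brush border hydrolases were at least 2-fold higher in small intestinal than in colon IEL, where 24.4% of genes were. Their median difference was 5.31. Among the intestinal alkaline phosphatases, Alpi was at 9.50 on the small intestinal IEL array and 6.37 on the array labelled LP, and Akp3 at 8.95 and 1.63. Enpp3, an ectonucleotide pyrophosphatase, was at 8.59 and 1.96. Nt5e, the nucleotidase CD73 that lymphocytes carry too, was at 6.31, 5.14, 5.78 and 4.95 over small intestinal IEL, the array labelled LP, recolonized and unmanipulated colon IEL, the smallest difference of this list.

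All 10 sugar, peptide and amino acid transporters were at least 2-fold higher on the small intestinal IEL array than on all 3 colon arrays. The shares over all genes above the floor were 24.4% against colon IEL, 17.9% against recolonized colon IEL and 8.76% against the array labelled LP. Median differences were 4.43 against colon IEL and 2.88 against the array labelled LP. Slc2a2, the glucose exporter GLUT2, was at 8.09 on the small intestinal IEL array and between 1.54 and 1.96 on the others. Slc5a1, the sodium-coupled glucose importer, was at 8.59, and at 5.85 on the array labelled LP. The peptide importer Slc15a1 was at 8.45 and 6.03.

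Genes that build the microvillus itself were counted in the same way. Of 12 microvillus structure genes, 11 were at least 2-fold higher on the small intestinal IEL array than on colon IEL. The list's median was 3.46, and 24.4% of all genes above the floor were higher. Against the array labelled LP 11 were within 2-fold, with a median of −0.14. Most genes above the floor were within 2-fold there too, with 8.76% higher and 15.7% lower. Myo1a, the brush border motor, was at 8.46 on the small intestinal IEL array and 8.03 on the array labelled LP. The actin bundler Pls1 was at 10.03 and 9.29, and the microvillar cadherin Cdhr2 at 7.73 and 8.48.

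In the lipid lists, Fabp1, the liver-type fatty acid binding protein that enterocytes also make, was at 8.99 on the small intestinal IEL array and between 1.43 and 1.81 on the colon arrays. The small intestinal level of Fabp1 exceeded that of the array labelled LP by 7.46; for Fabp2 these levels were 11.26 and 9.76. Rbp2, the retinol binding protein of enterocytes, was at 9.60 and 4.62 on small intestinal IEL and that array. Of the 11 uptake and binding genes besides Fabp2, 8 were at least 2-fold higher on small intestinal than on colon IEL. The 11 had a median of 3.40, and 24.4% of all genes above the floor were higher. Of the 9 assembly and secretion genes besides Mttp, 8 were higher, with a median of 2.38. On small intestinal IEL against the array labelled LP, 6 were within 2-fold, 2 higher and 1 lower. Of all genes above the floor, 8.76% were higher and 15.7% lower. P4hb, protein disulfide isomerase and the partner subunit of the transfer protein, was at 8.15 and 8.22 on those arrays, a difference of −0.076, where that of Mttp was 5.19. Tm6sf2, which acts in lipid loading, was at 7.33 and 4.71.

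Triglyceride resynthesis genes numbered 8, of which 7 were at least 2-fold higher on small intestinal than on colon IEL, where 24.4% of genes were. Dgat1, which makes triglyceride from diacylglycerol, was at 7.26 on small intestinal IEL, 5.08 on the array labelled LP and 2.04 on colon IEL. Against the array labelled LP the list's median was 0.05, with 3 genes higher and 1 lower, where 8.76% and 15.7% of genes were. Of the 7 apolipoproteins that are not among the 9 genes, 4 passed the floor against colon IEL. Of these, 2 were at least 2-fold higher on small intestinal IEL, where 24.4% of genes were. They were Apoc3 and Apoc2, an activator of lipoprotein lipase, at 6.05 against 2.69. Apoh and Apom were between 1.43 and 2.06 on all arrays.

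**Figure D4:**
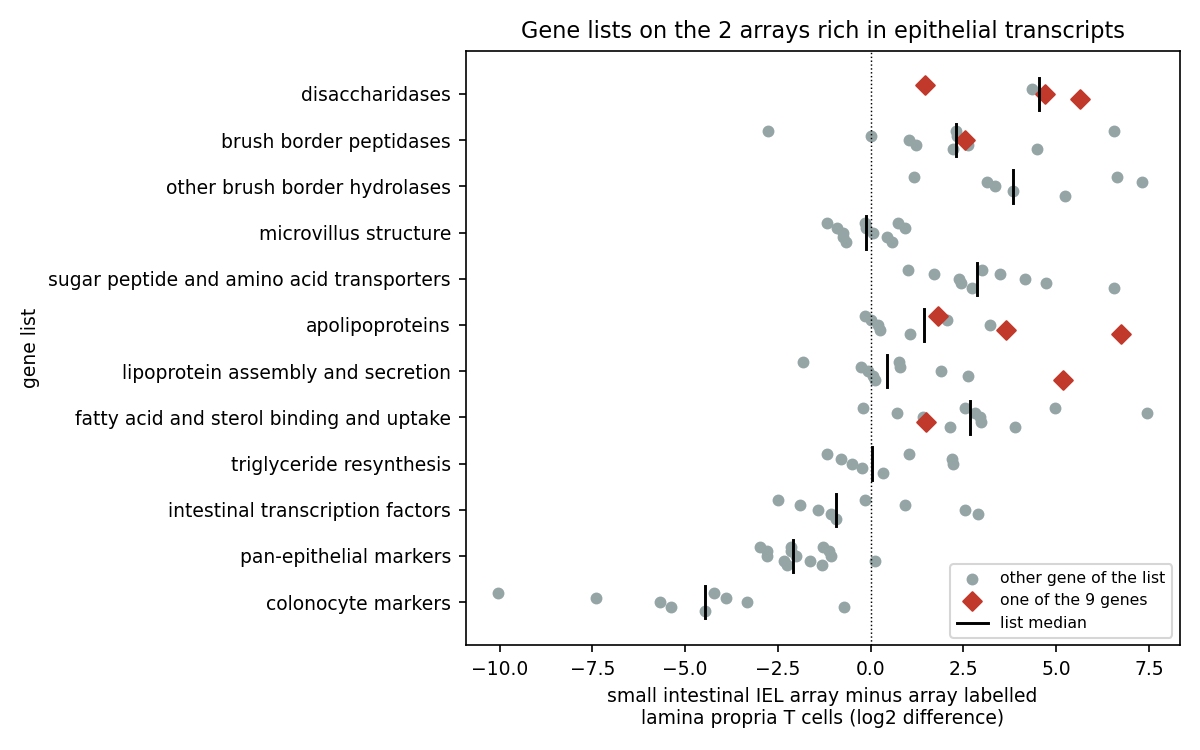
Small intestinal IEL array minus the array labelled LP (x axis, log2 difference) for every measured gene of 12 lists (rows); red diamonds are the 9 genes described here, grey points the other genes, black bars the list medians. Medians lie at 4.53 for disaccharidases and 3.83 for other hydrolases, at −0.14 for microvillus structure, and at −2.08 and −4.48 for pan-epithelial and colonocyte markers.

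Regional genes of the small intestine were also set beside the members. Fabp6, the bile acid binding protein of the ileum, was at 8.55 for small intestinal IEL, 5.74 on the array labelled LP and 2.52 and 2.55 on recolonized and unmanipulated colon IEL. The ileal bile acid importer Slc10a2 was at 3.26, 5.78, 1.75 and 1.68, so it was highest on a colon array. Of the proximal iron uptake genes, the ferroxidase Heph was at 5.71, 7.32, 2.32 and 2.34, and Cybrd1, the duodenal iron reductase, was between 1.64 and 2.60 on all 4 arrays. Among transcription factors of the intestinal epithelium, Hnf4g was at 8.85, 5.95, 3.40 and 2.50. It was at least 2-fold higher on the small intestinal IEL array than on each other array, whereas Klf5, at 7.41, 8.83, 5.32 and 3.69, and Gata6, at 5.69, 5.85, 2.55 and 3.01, were not higher than on the array labelled LP. Of the 9 factors measured, 2 were at least 2-fold higher and 4 lower on the small intestinal IEL array in that comparison, against 8.76% and 15.7% of all genes above the floor.

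Other tissues and cell types were checked by their markers. The liver makes Apob, Apoa1 and Mttp too. The 8 hepatocyte markers had a median of 1.81 on the small intestinal IEL array, with the highest at 2.81, and Alb, albumin, was at 1.93, below the median gene level. On the array labelled LP the median was 1.81 too, but Tat was at 5.58 and Ttr, chosen after its values were seen, at 4.33. Of 3 markers that passed the floor, these 2 were at least 2-fold higher there than on colon IEL, where 34.7% of genes were. Of 6 measured pancreatic acinar markers, 5 passed the floor and 3 were at least 2-fold higher on small intestinal IEL than on colon IEL. The share over all genes above the floor was 24.4%. The 3 were Ctrb1 at 6.78 against 2.39, Cpb1 at 5.29 against 2.39 and Cpa1 at 5.58 against 3.43. Amy2b was between 1.15 and 1.48 on all arrays. Paneth cell markers, of the crypts of the small intestine, were higher by a median of 6.45, with 7 of 7 at least 2-fold higher, where 24.4% of genes were. Against recolonized colon IEL 6 were higher, where 17.9% of genes were, and 1, Ang4, was lower, at 8.23 against 9.25. B cell markers were higher by a median of 2.46 and goblet cell markers by 1.25, and stromal markers were lower, with −1.89. The part of these cells in the members' levels was not tested.

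The genes outside the list whose pattern was most like that of the 9 genes were found by the distance between their 3 log2 differences (small intestinal IEL minus each other array) and the members' medians of 6.38, 6.08 and 3.65, over 4 arrays. The 10 nearest were Prap1, Guca2b, Arg2, Fabp6, Slc5a1, Hnf4g, Ace, Ephx2, Clca4b and Lgals2, at distances from 0.32 to 1.30. Prap1 was at 8.86 on small intestinal IEL, 5.13 on the array labelled LP, 2.91 on recolonized and 2.20 on colon IEL. Guca2b, the hormone uroguanylin, was at 9.71, 6.15, 3.94 and 3.31. The 9 members themselves lay farther from their own medians, at 1.65 for Mttp to 3.22 for Apoa4. The 10 genes were chosen for being nearest, so this gap follows from their selection.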

How the data were processed

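Expression was measured on 4 Affymetrix arrays, 1 per group by the labels. The deposited values are log2 levels. The submitters' processing notes name Affymetrix Expression Console as the tool; version, summarization, normalization and build are not given there or elsewhere in the sources. The table's 41345 probe sets divide into 23521 with 1 gene symbol, 1814 with several and 16010 with no entry in the gene table. A gene was its probe set with 1 symbol and the highest mean over the arrays (22180 genes). Comparisons are differences of log2 levels of the same gene, counted at 2-fold above a floor at the 50th percentile; levels of different genes are not set against each other, but each array's median gene level serves as a mark for low levels. The number of arrays limits the precision. The steps were tested on simulated data. Alternatives were other floors and thresholds, the mean of probe sets, quantile normalization, centring, and a lowess correction with a span of 0.3 (statsmodels 0.14.6, pandas 2.3.3, Python 3.11.15). The members and lists were chosen with earlier results of these data known. Named genes were drawn from the members, the 10 genes most like them and, per list, the 3 genes with the largest and the 1 with the smallest absolute difference between small intestinal and colon IEL. Not all of these list genes are named. Several with the smallest difference are left out, such as Espn at 0.34 and Scarb1 at 0.07. Genes outside this rule are marked.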

Additional observations from a re-analysis of the deposited data

How the results depend on the processing

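All 9 members stayed at least 2-fold higher on the small intestinal IEL array than on each other array under every floor and scaling tried. At a 3-fold threshold Mgam and Fabp2 fell short against the array labelled LP, leaving 7, and at 16-fold 4 remained there. The median difference from colon IEL was 6.38, but 5.48 after the lowess correction, 5.61 with quantile-normalized levels and 4.43 when centred on the pan-epithelial markers. From recolonized colon IEL it was 6.08, but 5.49 after the lowess correction and 4.94 with that centring, and from the array labelled LP it was 3.65 and 5.73. With the array labelled LP minus colon IEL, the same centring turned the median from 2.92 to −1.19, Sis to −1.19 and Apoa1 to −2.71, and left 3 of 6 members higher, by its own construction. For recolonized minus unmanipulated colon IEL the median was 0.75, but −0.038 with that centring and 0.16 with levels raised to the array median; 5 members were higher at 1.5-fold and 0 at 16-fold. That centring subtracts 1.95, 1.14, −2.08, 4.11 and 0.79 from every gene's difference in these 5 comparisons, in the order given. A median counted as moved when it shifted by more than the SD of the differences of ribosomal protein genes, which was 0.39 to 0.57. The mean of probe sets left the members as they were, since each has 1. The pseudocount was not run, as the values are on the log2 scale. No paired analysis was possible because each group is 1 array. No detection calls were used here, so levels near the array median may be background.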
